A study of Homo sapiens with 8 samples.

Results

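The cadherin, contactin and neurexin adhesion genes are 49 of the 20056 protein-coding genes in the RefSeq table of GRCh38.p14. They were taken by symbol as cadherins (CDH), protocadherins (PCDH), contactins (CNTN), contactin-associated proteins (CNTNAP), neurexins (NRXN) and neuroligins (NLGN) off the sex chromosomes, without the clustered protocadherins. Their peaks are the m6A peaks that overlap the bounds of these genes by 1 bp or more. There were 128 such peaks among 23937 in METTL3 knockout and 165 among 29084 in wild type.

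The study profiled N6-methyladenosine (m6A) in chromosome-associated RNA of HEK293T, a much used cell line from human embryonic kidney. The 8 samples form 4 groups of 2, namely m6A immunoprecipitates (IP) and inputs of METTL3-knockout cells and IP and inputs of parental wild-type (WT) cells. METTL3 is the catalytic subunit of the main m6A methyltransferase, and the labels give these samples no other allele or treatment. The sources used here do not say whether the knockout line is 1 clone. Each genotype is represented by 1 deposited peak list without values per replicate, so no difference below has a replicate check.

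Cadherins and protocadherins are calcium-dependent proteins that bind their like on a neighbouring cell. Neurexins sit mainly on the presynaptic side and bind neuroligins on the postsynaptic side, and contactins and contactin-associated proteins join axons to glia and to other neurons. Many of these genes are very long and are best known from the nervous system. m6A is added to RNA while it is being made, and RNA held on chromatin is rich in unspliced, intronic transcripts.

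Both lists ran on both strands, and a peak was called shared when it overlapped a same-strand peak of the other list by 1 bp or more. The fold of a peak is the authors' value of IP over local input at its summit. The number of IP reads at each summit was recovered from that fold and its p-value. The recovery takes 1 to have been added to scaled IP and to input before the fold was formed. The local input is given as a multiple of the genome-wide background of its list and strand. That background was 0.135 to 0.173 before the addition, so at low input the fold mostly follows IP reads and is below a plain ratio. Recovered IP depth in the knockout was 1.17 times (plus strand) and 1.20 times (minus strand) that of wild type, and input depth was 0.923 and 0.918 times, so read numbers are not on one scale between the lists.

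Peaks reached the window from 250 bases before an annotated start to 50 bases after it in 4 of the 52 windows held for 34 of the genes. Of these, 3 were met by a knockout peak lying in the gene, and their sequences are shown because the peak covers the annotated start or lies just past it. Each line gives 280 bases of the gene's strand from RefSeq (GRCh38.p14), 250 before the start and 30 from it, and capitals mark the bases covered by the knockout peak. CDH23 is read from chr10:71396670-71396949 (plus strand), CNTNAP1 from chr17:42682281-42682560 (plus strand) and PCDH9 from chr13:67230307-67230586 (minus strand).
CDH23: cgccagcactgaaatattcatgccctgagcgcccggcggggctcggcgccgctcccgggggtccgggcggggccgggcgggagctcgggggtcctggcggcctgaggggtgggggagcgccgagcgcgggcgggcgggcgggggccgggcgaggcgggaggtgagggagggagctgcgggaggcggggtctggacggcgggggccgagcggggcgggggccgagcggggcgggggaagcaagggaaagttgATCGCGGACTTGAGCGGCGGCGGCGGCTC
CNTNAP1: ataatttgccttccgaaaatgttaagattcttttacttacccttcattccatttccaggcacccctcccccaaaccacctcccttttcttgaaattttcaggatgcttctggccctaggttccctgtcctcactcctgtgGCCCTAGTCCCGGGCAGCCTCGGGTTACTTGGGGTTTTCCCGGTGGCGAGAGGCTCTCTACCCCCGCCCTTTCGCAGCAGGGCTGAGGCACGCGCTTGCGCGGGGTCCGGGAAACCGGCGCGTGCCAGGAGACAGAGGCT
PCDH9: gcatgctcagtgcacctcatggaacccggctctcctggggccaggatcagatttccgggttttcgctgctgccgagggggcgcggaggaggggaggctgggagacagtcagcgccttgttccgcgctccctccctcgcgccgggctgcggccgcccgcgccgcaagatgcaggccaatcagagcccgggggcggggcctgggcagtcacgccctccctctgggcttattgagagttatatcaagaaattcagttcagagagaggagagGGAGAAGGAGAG
The CNTNAP1 peak covered sequence on both sides of the start, while the CDH23 and PCDH9 peaks lay on its transcribed side and touched only the end of the line. The letters GGAC, the core of the m6A consensus, were searched on both strands as GGAC and GTCC, which do not overlap each other. GGAC occurred on the gene strand 2 times in the CDH23 line and 0 times in the lines of CNTNAP1 and PCDH9, while GTCC occurred 2 times in the line of CDH23, 3 times in that of CNTNAP1 and 0 times in that of PCDH9. Among 35116 windows of the same length, 63.3% held GGAC on the gene strand and 85.3% held it on either strand. The knockout peaks go beyond these lines, and their remaining sequence was not analysed here.

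CDH23, a cadherin of the hair-cell tip link, carried this knockout peak at chr10:71396921-71397131 with a fold of 6.73 and 26 IP reads, and no wild-type peak overlapped it. CNTNAP1, which joins the axon to the glial loops beside the node of Ranvier, carried its knockout peak at chr17:42682421-42682668 with a fold of 14.9 and 34 IP reads over an input at background. PCDH9, a delta-protocadherin, had the knockout peak chr13:67229996-67230318 with a fold of 9.02 and 48 IP reads, against a wild-type partner at chr13:67229908-67230267 with a fold of 5.01 and 77 IP reads. Of these peaks, only that of PCDH9 had a wild-type partner.

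METTL3, the targeted gene, had 0 peaks in knockout and 2 in wild type. Peak lists hold no expression level, so this says nothing of its RNA or protein. Of 9 marker genes of kidney tubule, podocytes and neurons, 1 had a peak, the neurofilament gene NEFL with 1 shared peak in each list.

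A peak was found in 27 of the 49 adhesion genes (55.1%), beside 47.8% of all protein-coding genes. The adhesion genes are long, with a median of 158 kb against 24.0 kb for other protein-coding genes. Set beside genes of like length, a smaller share of them carried a peak above 100 kb but not below it, and these differences were not tested. Over 500 kb, 9 of 13 adhesion genes had one (69.2%) and 261 of 302 others (86.4%), and between 100 and 500 kb, 9 of 18 adhesion genes (50%) and 2443 of 3023 others (80.8%). Up to 100 kb, 9 of 18 adhesion genes had one (50%) and 6861 of 16682 others (41.1%). Genes without a peak were also shorter, with a median of 135 kb against 244 kb for those with one. In bulk libraries such as these, fewer cells with an RNA and less of it per cell cannot be told apart, and a peak list does not separate either from less methylation.

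Of the 27 genes, 13 had peaks in both lists, 5 in that of the knockout alone and 9 in that of wild type alone. Peaks in the knockout list alone made up 18.5% of these genes, beside 17.2% of all protein-coding genes with a peak. Peaks in the wild-type list alone made up 33.3%, beside 27.2%. The 22 genes without a peak included CDH1 (E-cadherin), CDH5 (the endothelial VE-cadherin) and CDH16 (kidney-specific cadherin). They also included CDH4, CDH6, CDH8, CDH9, CDH11, CDH13, CDH15, CDH17, CDH18, CDH19, CDH20, CDH22, CDH24, CNTN2, CNTN3, CNTNAP4, PCDH1 and PCDH8.

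**Figure D1:**
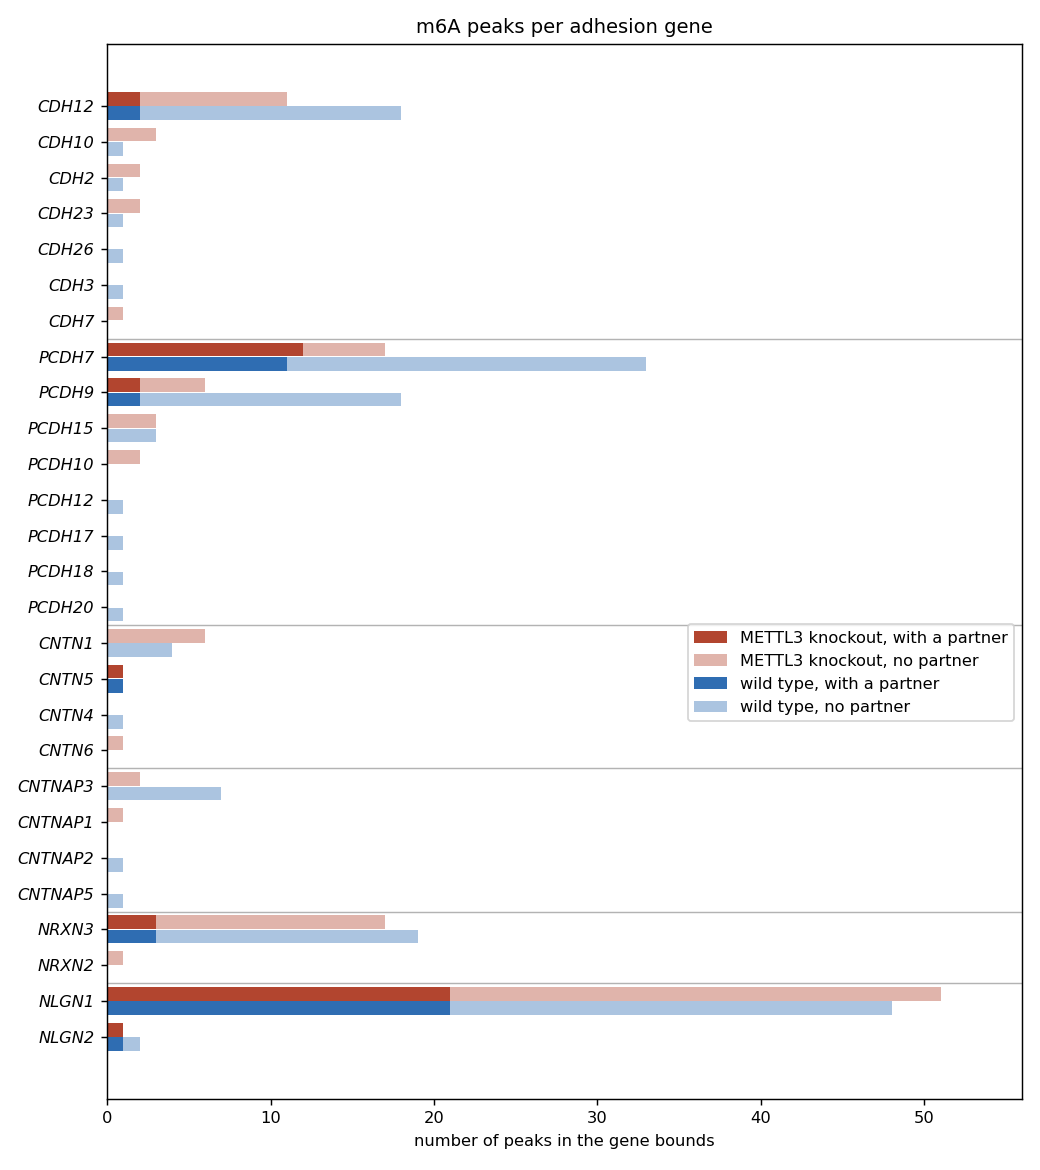
Number of m6A peaks (horizontal axis) in each adhesion gene with a peak, METTL3 knockout above wild type in each row, with solid bars for peaks with a partner in the other list and pale bars for peaks without one. Lines separate the families from cadherins at the top to neuroligins at the bottom; NLGN1 had 51 knockout and 48 wild-type peaks, more than any other gene shown.

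No adhesion gene passed a test of its peak number. Each gene's numbers in the lists were set against all other peaks by a two-sided Fisher's exact test over 12199 protein-coding and long noncoding genes with Benjamini-Hochberg adjustment. Of the 27 adhesion genes, 0 were called with more peaks in knockout (0.0164% of all genes were) and 0 with more in wild type (0.0164% likewise), each at an adjusted p of 1. At an unadjusted p under 0.05, 0 adhesion genes were called either way, beside 0.721% of all genes with more in knockout and 0.541% with more in wild type. The lowest unadjusted p was 0.0631, for PCDH9. This test compares 2 lists and not replicates, and peaks of 1 gene are not independent. PTPRD, a partner gene outside this set, had 0 knockout and 17 wild-type peaks and still an adjusted p of 0.134. A gene of few peaks thus could not be called whatever its split, and 0 calls are not a measure of equal numbers.

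Knockout peaks made up 43.7% of adhesion-gene peaks (95% Clopper-Pearson interval 37.9 to 49.6) and 44.6% of the peaks in other protein-coding genes. In the knockout list 86 of 128 peaks had no wild-type partner, or 67.2% (58.3 to 75.2), beside 73.5% of all peaks in protein-coding genes. In the wild-type list 124 of 165 had no knockout partner, or 75.2% (67.8 to 81.5), beside 78.7%. Both shares rested on NLGN1 and PCDH7. Without these genes 85% of 60 knockout peaks and 89.3% of 84 wild-type peaks had no partner. Intervals here and below cover counting error only.

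The families differed in how many of their genes carried peaks. Both neuroligins had peaks, as did 8 of 10 protocadherins, 4 of 5 contactin-associated proteins, 4 of 6 contactins and 7 of 23 cadherins. Neuroligins held 52 knockout and 50 wild-type peaks, nearly all in NLGN1. Protocadherins held 28 knockout and 58 wild-type peaks, a knockout share of 32.6% (22.8 to 43.5), which lies below the 44.6% of other genes. No test was made of a family, and PCDH7 and PCDH9 supply 23 of those knockout peaks and 51 of those wild-type peaks. Cadherins held 19 knockout and 23 wild-type peaks, and neurexins 18 knockout and 19 wild-type peaks. Contactins held 8 knockout and 6 wild-type peaks, and contactin-associated proteins 3 knockout and 9 wild-type peaks. The share of peaks without a partner was 57.7% in knockout and 56% in wild type for neuroligins, and 50% in knockout and 77.6% in wild type for protocadherins. For the cadherins it reached 89.5% in knockout and 91.3% in wild type, and 0 of the 12 peaks in contactin-associated proteins had a partner. Over all protein-coding genes it was 73.5% in knockout and 78.7% in wild type. Median IP reads in knockout and wild type were 16 and 15 for cadherins, and 28 and 22 for contactin-associated proteins. In other protein-coding genes, 13.0% of knockout and 11.5% of wild-type peaks of 16 to 29 reads had a partner.

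NLGN1 (chr3:173395952-174294372, plus strand) encodes neuroligin 1, a postsynaptic partner of the neurexins found at excitatory synapses. It is 898 kb long and carried 51 knockout peaks and 48 wild-type peaks, or 5.68 per 100 kb in knockout and 5.34 in wild type. Among protein-coding genes it ranked 2 by peak number in knockout and 4 in wild type. In other genes over 500 kb the density was 0.829 peaks per 100 kb in knockout and 1.04 in wild type. The gene was thus densely covered in both genotypes.
In each list 21 of its peaks were shared. Its knockout peaks had a median of 54 IP reads over an input of 13.6 times background, and its wild-type peaks 25.5 reads over 9.12 times background. Among peaks of 30 or more IP reads, 43 were in knockout and 22 in wild type, a knockout share of 66.2% (53.4 to 77.4), beside 50.6% (49.9 to 51.3) of such peaks in other protein-coding genes. Recovered IP depth on this strand was 1.17 times as high in knockout, so a cut at 30 reads is not equal between the lists. This cut was chosen after seeing the data, and with it NLGN1 was not called at an adjusted p under 0.05. The parts of depth and of local input in this share were not tested.
On the gene strand the first knockout peak lay 65.1 kb from the 5′ bound and the first wild-type peak 149 kb from it, and both lists then ran on to 891 kb. The first 25% of the gene held 12 knockout and 7 wild-type peaks. Its highest knockout fold was 17.6, at chr3:174092063-174092359 with 64 IP reads and no partner. Its highest wild-type folds were 17.7, at chr3:174159394-174159632 with 45 reads and no partner, and 15.9, at chr3:173892411-173892783 with 53 reads. This last peak had a knockout partner with a fold of 3.66 and 59 reads, whose local input was 43.7 times background against 6.23 times in wild type.

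NLGN2 (chr17:7404653-7419860, plus strand), the neuroligin of inhibitory synapses, had 1 knockout and 2 wild-type peaks. Its shared pair lay near the 5′ bound of the gene, upstream of the annotated start held here, at chr17:7407845. It had 220 IP reads and a fold of 3.55 in knockout, against 262 reads and a fold of 6.15 in wild type. The local input there was high in both lists, at 181 times background in knockout and 144 times in wild type. The other wild-type peak had 33 reads and a fold of 3.50 and lay at 87.8% of the gene.

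NRXN3 (chr14:78170373-79868291, plus strand) encodes neurexin 3, a presynaptic receptor; neurexin genes make a long alpha form and a shorter beta form from separate starts. It carried 17 knockout and 19 wild-type peaks on 1698 kb, 3 of them shared in each list. All 36 lay downstream of the last of the 3 annotated starts, which is 1109 kb from the 5′ bound. The nearest peak to that start was a wild-type one 2.81 kb beyond it. Knockout peaks spanned 68.9 to 96.9% of the gene and wild-type peaks 65.5 to 99.7%. The upstream stretch of more than a megabase thus held no peak in either genotype.
The highest knockout fold of any adhesion-gene peak was here, 22.0 at chr14:79358410-79358670 with 53 IP reads, against a wild-type partner of fold 10.9 with 20 reads. The local input of that pair was close to background in both. A further knockout peak of fold 16.1 with 43 reads, at chr14:79744834-79745115, had no partner. The pair with the most reads in this gene had 95 IP reads and a fold of 6.65 in knockout, against 82 reads and a fold of 6.35 in wild type. NRXN2 had 1 knockout peak alone, with 16 reads over an input at background, and the strand of that gene was not given.

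PCDH7 (chr4:30720369-31146800, plus strand), a delta-protocadherin, carried 17 knockout and 33 wild-type peaks, a knockout share of 34% (21.2 to 48.8). Of these, 12 knockout and 11 wild-type peaks were shared, since 1 wild-type peak at the start of the gene met 2 knockout peaks. The lists matched closely in the first 25% of the gene, with 9 knockout and 8 wild-type peaks on the gene strand, of which 7 in knockout and 6 in wild type were shared. The last 25% held 2 knockout peaks, both shared, and 12 wild-type peaks, 10 of them unshared. Over all protein-coding genes 78.7% of wild-type peaks were unshared. The 12 wild-type peaks had 15 to 148 IP reads, with a median of 30, and 6 of them had 30 or more. Gene-strand peaks of the first 25% had a median of 122 reads in knockout and 116 in wild type.
The first 4 kb of PCDH7 held its peaks of most reads and highest input. The pair at its start had 176 IP reads and a fold of 3.07 in knockout, against 364 reads and a fold of 3.76 in wild type. The other knockout peak under that wild-type peak had 321 reads and a fold of 4.50, and the wild-type summit lay within it. The pair was set by the most bases shared, and its summits lay 336 bp apart, the most of any pair. Both genotypes thus had a peak of many reads at the start. The pair about 3 kb in had 158 reads and a fold of 3.20 in knockout, against 199 reads and a fold of 3.22 in wild type. Input there was 144 times background in knockout and 212 times in wild type, so that many reads gave low folds in both.
Folds were higher further in. The pair at 336 kb had 138 reads and a fold of 11.2 in knockout, against 148 reads and a fold of 15.1 in wild type. The pair at 377 kb had the highest knockout fold of the gene, 20.5 with 92 reads at chr4:31097270-31097510, against 14.4 with 55 reads in wild type. A pair of wild-type peaks of high fold had no partner, 17.6 at chr4:31032427-31032664 with 79 reads and 15.4 at chr4:31114516-31114737 with 42 reads.

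PCDH9 (chr13:66302834-67230336, minus strand) carried 6 knockout and 18 wild-type peaks, a knockout share of 25% (9.77 to 46.7). All 6 knockout peaks lay in the first 16.5% of the gene, while the wild-type peaks went on to 93.9%. The first 25% held 6 peaks in each list, 2 of them shared. The other 12 wild-type peaks had no partner and few reads, from 10 to 32 with a median of 14.5. Of the wild-type peaks, 4 also lie in the bounds of PCDH9-AS2, a long noncoding gene whose strand was not given.
Other protocadherins had few peaks. PCDH10, a delta-protocadherin of the brain, had 2 knockout peaks alone, with 86 and 96 IP reads and folds of 10.1 and 3.92, both near the lower-coordinate end of the gene, whose strand was not given, and 0 in wild type. PCDH17, PCDH18, PCDH20 and PCDH12 each had 1 wild-type peak alone. The PCDH18 peak had a fold of 14.6 with 34 reads, and the PCDH17 peak a fold of 3.40 with 60 reads over an input of 57.7 times background. Those of PCDH20 and PCDH12 had 17 and 18 reads. PCDH15, the tip-link partner of CDH23, had 3 peaks in each list and 0 shared, all of 13 to 23 reads on 1825 kb.

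CDH12 (chr5:21750673-22853344, minus strand), a type II cadherin of the brain, held most of the cadherin peaks, 11 in knockout and 18 in wild type, with 2 shared in each. On the gene strand the 8 knockout peaks lay between 13.7 and 49.5% of the gene, and the 18 wild-type peaks between 1.35 and 91.7%. The downstream 50% thus held 0 gene-strand peaks in knockout against 6 in wild type. Support was thin in both lists. The 8 knockout peaks had a median of 23 reads, and 7 of all 11 stood over an input at background, as did 12 of the 18 in wild type. The 6 wild-type peaks of that stretch had 11 to 16 reads.
A further 3 knockout peaks lay on the strand opposite to CDH12, close together near 80% of the gene, with 12, 24 and 27 reads.
The remaining cadherins had at most 3 peaks in a list and 0 shared. CDH10, a type II cadherin, had 3 knockout peaks and 1 in wild type, all at background input. CDH2 (N-cadherin) and CDH23 each had 2 knockout peaks and 1 in wild type. CDH7 had 1 knockout peak alone with 14 reads, and CDH3 (P-cadherin) and CDH26 each had 1 wild-type peak alone with 13 and 18 reads.

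CNTN1 (chr12:40692439-41072415, plus strand), the contactin that pairs with CNTNAP1 beside the node of Ranvier, had 6 knockout and 4 wild-type peaks and 0 shared. Its knockout peaks had 11 to 30 reads and folds of up to 12.4, and its wild-type peaks 10 to 15 reads and folds of up to 8.61. The 6 knockout peaks all lay in the upstream 50% of the gene, and the farthest wild-type peak lay at 82.8%. Upstream of all annotated starts held for CNTN1 were 3 of its knockout peaks and 1 of its wild-type peaks. CNTN6 had 1 knockout peak alone and CNTN4 1 wild-type peak alone, each with 14 reads on the strand opposite to the gene. CNTN5 had 1 shared pair, also opposite to the gene, with 13 reads in knockout and 7 in wild type.
CNTNAP3 (chr9:39064710-39288167, minus strand), a contactin-associated protein of the brain, had 2 knockout and 7 wild-type peaks and 0 shared. Its wild-type peak at chr9:39224125-39224330 had the highest wild-type fold of any adhesion-gene peak, 17.8 with 34 reads over an input at background. CNTNAP3 has near-identical copies on the same chromosome, which held 19 knockout and 20 wild-type peaks in CNTNAP3B, CNTNAP3C and CNTNAP3P2, so where its reads were placed is uncertain. CNTNAP2, which gathers potassium channels on the axon, had 1 wild-type peak alone with 23 reads and a fold of 12.5 on 2304 kb. CNTNAP5 had 1 wild-type peak alone, with 16 reads opposite to the gene.

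**Figure D2:**
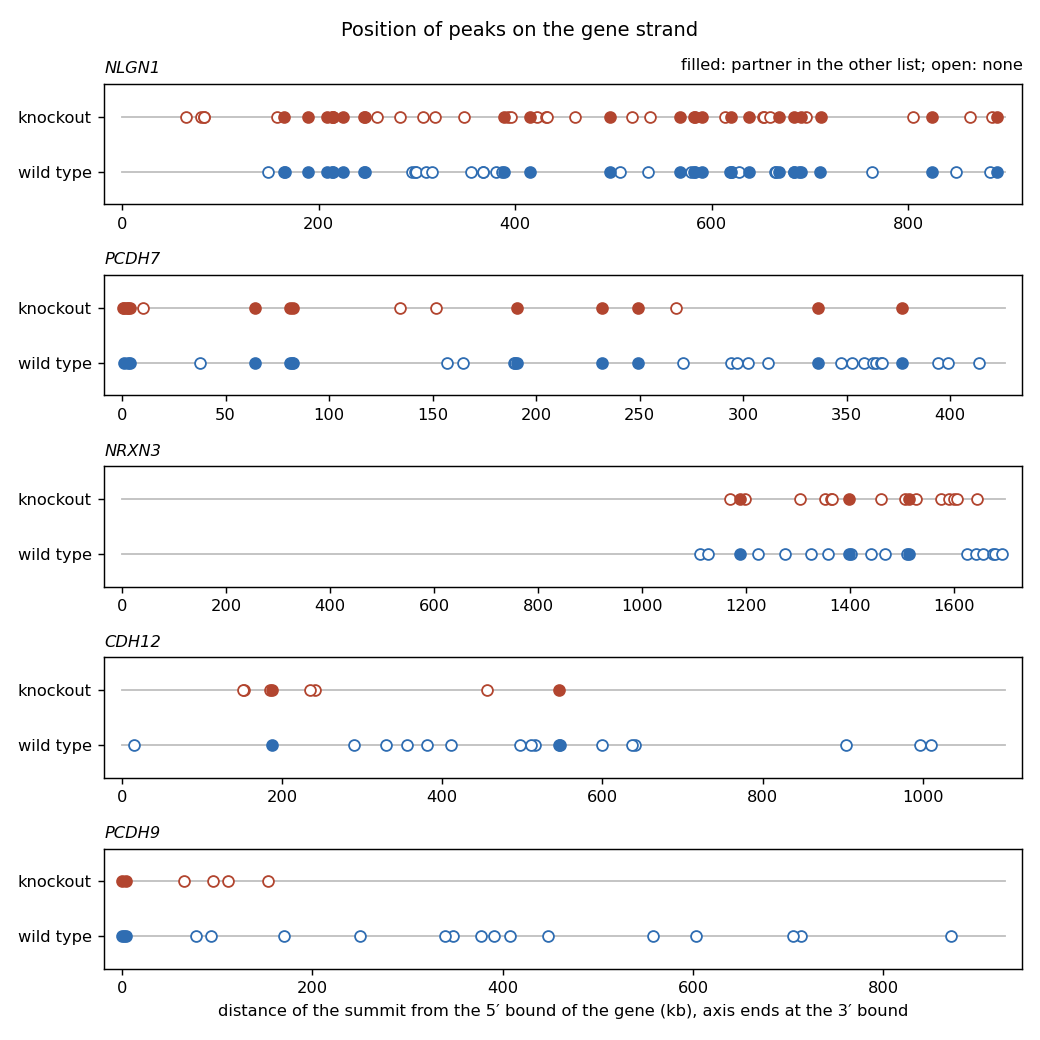
Position of each gene-strand peak along the 5 adhesion genes with the most peaks, as distance in kb from the 5′ bound, with METTL3 knockout on the upper line and wild type on the lower line of each panel (filled circles have a partner in the other list, open circles have none). The 36 NRXN3 peaks all lie beyond 1109 kb, the 6 PCDH9 knockout peaks within 153 kb of the 5′ bound, and the last 25% of PCDH7 holds 2 knockout and 12 wild-type peaks.

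Pooled over the genes, the downstream part held a smaller share of knockout than of wild-type peaks, with intervals that overlap. Of 118 gene-strand knockout peaks, 42.4% (33.3 to 51.8) lay in the downstream 50% of their gene, beside 51.7% of such peaks in all protein-coding genes. Of 156 wild-type peaks, 51.9% (43.8 to 60) did, beside 50.9%. The first 25% held 35.6% (27.0 to 44.9) of knockout and 18.6% (12.8 to 25.6) of wild-type peaks. In other protein-coding genes it held 24.5% of knockout and 25.5% of wild-type peaks. The gap was uneven by gene. In CDH12 the first 25% held 6 of 8 knockout and 2 of 18 wild-type peaks, and in PCDH9 6 of 6 and 6 of 18. In PCDH7 it held 9 of 17 and 8 of 32, and in NLGN1 12 of 50 and 7 of 48. NRXN3 had 0 there in both lists, and PCDH15, with few peaks, went the other way. No test was made of these shares, since peaks of 1 gene are not independent, and the intervals do not allow for that. Among peaks of 30 or more IP reads, the first 25% held 36.5% (25.6 to 48.5) in knockout and 29.5% (18.5 to 42.6) in wild type, so the gap was smaller there and the intervals overlap. Without NRXN3, all of whose peaks are downstream, 32.7% of knockout and 45.3% of wild-type peaks lay in the downstream 50%.

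Nearly all peaks ran with their gene. Where the gene's strand was given, 118 of 125 knockout peaks (94.4%) lay on it, beside 91.4% over all protein-coding genes, and 156 of 163 wild-type peaks (95.7%), beside 92.0%. The 7 opposite peaks in knockout lay in CDH12, CNTN5, CNTN6, NLGN1 and PCDH15. The 7 in wild type lay in CDH23, CNTN4, CNTN5, CNTNAP5, PCDH7, PCDH12 and PCDH15. All 14 had fewer than 30 IP reads, from 12 to 27 in knockout and from 7 to 23 in wild type, and 6 in knockout and 4 in wild type stood over an input at background. For 3 knockout peaks (PCDH10 and NRXN2) and 2 wild-type peaks (CDH3 and PCDH20) the gene's strand was not given.

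**Figure D3:**
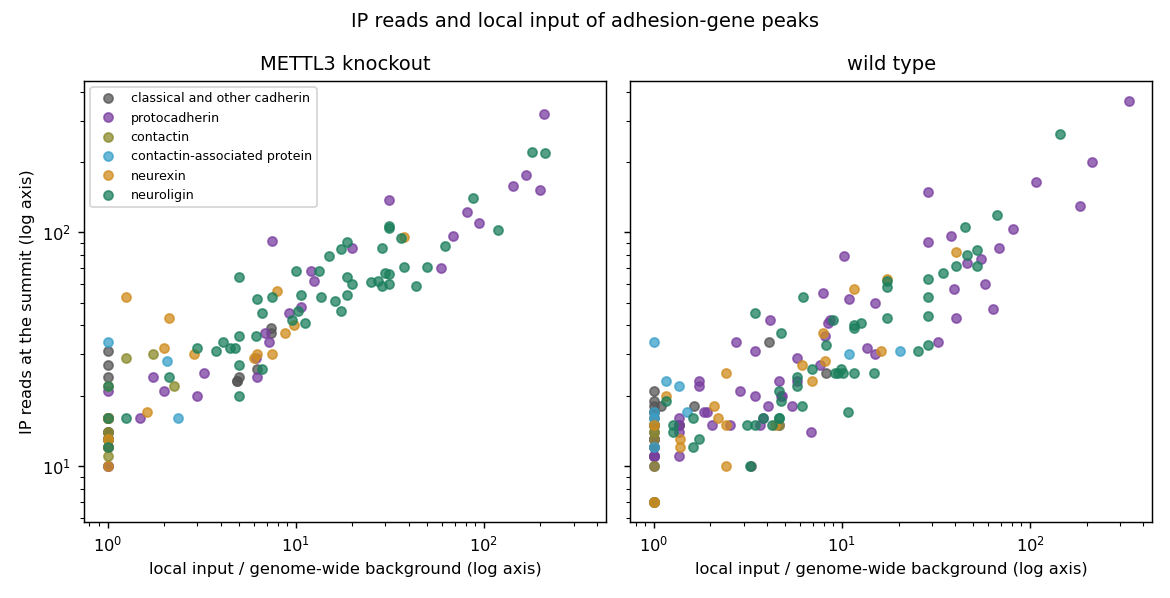
IP reads at the summit (vertical log axis) against local input as a multiple of the genome-wide background of the list and strand (horizontal log axis) for each adhesion-gene peak, METTL3 knockout on the left and wild type on the right, coloured by family. Cadherin and contactin peaks gather at an input of 1, where 25% of all knockout and 20% of all wild-type adhesion-gene peaks stand, and neuroligin and protocadherin peaks reach 220 to 364 reads.

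Support by reads was low for many of these peaks. The local input was at the genome-wide background for 32 knockout peaks, or 25% (13.6% over all protein-coding genes), and for 33 wild-type peaks, or 20% (11.9%). Cadherins supplied 13 of those knockout peaks and 16 of those wild-type peaks. At least 30 IP reads stood behind 76 of 128 knockout peaks (59.4%, beside 55.3% over all protein-coding genes) and 61 of 165 wild-type peaks (37%, beside 43.4%). Peaks with a partner had more reads, with a median of 66.5 against 28.5 for the unshared in knockout, and of 50 against 18 in wild type. The share with a partner was 5.56% in knockout and 4.08% in wild type at up to 15 reads, and 63.2% in knockout and 64% in wild type at 60 or more. In other protein-coding genes it was 5.73% in knockout and 5.28% in wild type at up to 15 reads, and 55.9% in knockout and 56% in wild type at 60 or more. Whether a peak was found in both lists thus went with its reads in adhesion genes and in the rest.

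**Figure D4:**
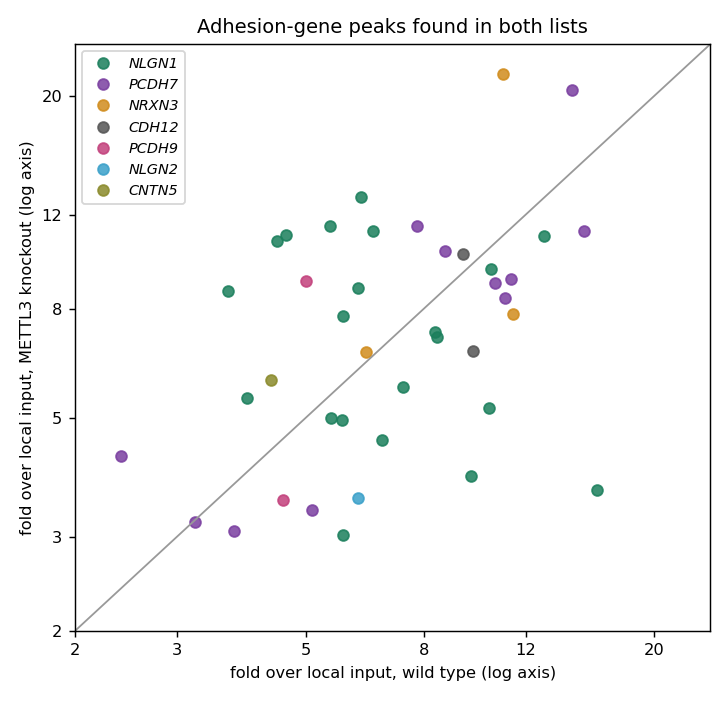
Fold over local input of each of the 41 shared pairs in adhesion genes, METTL3 knockout on the vertical axis and wild type on the horizontal axis (both log), coloured by gene, with the line of equal folds. The knockout fold was higher in 18 pairs and lower in 23, and NLGN1, with 21 pairs, spread most widely about the line.

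The peaks found in both lists formed 41 pairs, 21 of them in NLGN1, 11 in PCDH7, 3 in NRXN3, 2 each in CDH12 and PCDH9, and 1 each in CNTN5 and NLGN2. Their summits lay a median of 31 bp apart, and 26 of 41 within 50 bp. The fold was higher in knockout in 18 pairs and lower in 23, with a median log2 difference (knockout over wild type) of -0.14 and quartiles of -0.40 and 0.51. The 4788 pairs in other protein-coding genes had a median of 0.02. In NLGN1 the fold was higher in 9 pairs and lower in 12, from -2.12 to 1.26, and in PCDH7 higher in 4 and lower in 7, with a median of -0.25. The pair at the start of PCDH7 counts as lower in knockout, at 3.07 against 3.76. The other knockout peak there, which holds the wild-type summit, had a fold of 4.50. The local input was higher in knockout in 14 of 21 NLGN1 pairs but in 2 of 11 PCDH7 pairs. Because the scale of IP to input may differ between the lists, a log2 difference near 0 is not a measure of equal methylation.
Over all adhesion-gene peaks the median fold was 7.47 in knockout and 7.32 in wild type, and in other protein-coding genes 7.06 in knockout and 7.26 in wild type. The order of the adhesion-gene medians turned under 4 alternatives, among them the removal of NLGN1, NRXN3, or NLGN1 and PCDH7. It was 7.06 in knockout and 7.50 in wild type without NLGN1, and 7.47 in knockout and 7.80 in wild type with equal numbers of strongest peaks. The top 10% of folds of each list took in 18 knockout (14.1%) and 18 wild-type (10.9%) adhesion-gene peaks.

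Genes that work with these adhesion proteins were counted from 4 lists, and their shares with a peak stand beside the 47.8% of all protein-coding genes. Of 18 binding partners and scaffolds of neurexins and neuroligins, 13 had a peak, with 75 knockout and 106 wild-type peaks in all. They included ADGRL3, a latrophilin receptor (18 in knockout, 15 in wild type), and LRRTM4 (13 in knockout, 13 in wild type). The scaffold MAGI2 had 10 in knockout and 19 in wild type. PTPRD, a receptor phosphatase that induces synapses, had 0 knockout and 17 wild-type peaks, with an unadjusted p of 6.58e-05 and an adjusted p of 0.134 by Fisher's exact test over all genes. Of 7 catenins, which tie cadherins to actin, 4 had a peak, with 5 in knockout and 10 in wild type. Of 9 large cadherins of the FAT, dachsous and CELSR groups, 7 had a peak, with 23 in knockout and 13 in wild type, among them FAT4 (9 in knockout, 3 in wild type) and FAT3 (3 in knockout, 0 in wild type). Of 5 L1-family and contactin partners, 3 had a peak, with 17 in knockout and 23 in wild type, mostly in the receptor phosphatase PTPRG (12 in knockout, 18 in wild type). In these 4 lists 0 genes were called at an adjusted p under 0.05, and FAT4, with more in knockout, and PTPRD, with more in wild type, had an unadjusted p under 0.05, as did 0.721% and 0.541% of all genes in those directions.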

How the data were processed

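Chromosome-associated RNA of METTL3-knockout and wild-type HEK293T cells was freed of DNA and ribosomal RNA, enriched with an m6A antibody kit and sequenced with its input from stranded libraries, per the labels' protocols. MACS2 2.2.7.1, HISAT2 2.2.1, SAMtools 1.15.1 and the build hg38 are named in the submitters' processing notes. The order of steps, the peak threshold and whether replicates were pooled are not given in the sources used here. The deposited lists, 1 per genotype, hold for each peak a display score, which was not used, and the fold on a linear scale. They also hold the −log10 of p and q as the authors' caller gave them. The lowest deposited −log10 q was 2.02 in knockout and 2.01 in wild type.

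Gene bounds came from the RefSeq table of GRCh38.p14, and gene strands and start windows, held for 34 of the 49 genes, from the RefSeq promoter table. The other 15 genes have no strand here. CNTNAP3B and CNTNAP3C, whose symbols end in a letter, were left out of the members. IP reads were recovered as the whole number that gives both the deposited fold and the Poisson p. The limit was 0.002 on the −log10 p scale and widened in proportion to −log10 p for stronger peaks. Within it a number was found for 99.99% of peaks and for 293 of 293 adhesion-gene peaks. Total reads per library are not known, and no exon, UTR or genome sequence was used. Shares have 95% Clopper-Pearson intervals. Tools were SciPy 1.17.1, pandas 2.3.3 and numpy 2.4.6 under Python 3.11.15, with matplotlib 3.10.9 for the plots; the scripts were tested on simulated data. Alternatives varied the overlap, the strand, the threshold, the list length, the gene assignment, the read support and the genes included.

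Genes named are those with 5 or more peaks, those with peaks in 1 list alone, those of the 5 highest folds in each list and those of the 5 shared pairs with most reads. CDH2, CDH10, CDH23, NLGN2, CNTN5, PCDH15 and the partner genes were named to complete their families or lists, after their values were seen. Members and lists were chosen with earlier results of these data known. Some genes that these rules would name are not reported here.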

Additional observations from a re-analysis of the deposited data

How the results depend on the processing

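No paired analysis was possible because the deposited lists hold no values per replicate, and leaving out a replicate could not be done for the same reason. The number of adhesion genes called by peak number stayed 0 under its 4 alternatives. Only with 30 or more IP reads did 1 of 13 adhesion genes tested have an unadjusted p under 0.05, NLGN1 with 43 knockout and 22 wild-type peaks (p = 0.0246, adjusted p = 1, Fisher's exact test). The share of knockout peaks without a partner ranged from 61.8 to 85% over its 13 alternatives and was within its interval in 12, the exception being 85% without NLGN1 and PCDH7. The wild-type share ranged from 54.1 to 89.3% and was within its interval in 10 of 13; it was 54.1% for peaks of 30 or more IP reads, 82.9% without NLGN1 and 89.3% without NLGN1 and PCDH7. The knockout share of all adhesion-gene peaks ranged from 39.7 to 55.5%, with 55.5% for peaks of 30 or more IP reads. Peaks of 30 or more IP reads also gave a median fold of 8.43 in knockout and 6.77 in wild type, 100% of peaks on the gene strand in both, and 29.5% of wild-type peaks in the first 25%. Equal numbers of strongest peaks gave a wild-type median fold of 7.80, above the 7.47 of the knockout, and without NLGN1 the medians were 7.06 in knockout and 7.50 in wild type. Without NRXN3, 32.7% of knockout peaks lay in the downstream 50%. The cause of these shifts was not tested. Alternatives by read support, by gene sets and with the CNTNAP3 copies were chosen after seeing the data. Peaks of few reads limit every count given, since 5.56% of knockout and 4.08% of wild-type peaks of up to 15 reads had a partner.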

Other observations

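A wild-type peak lay just upstream of CNTNAP3, at chr9:39288181-39288388 on the strand of the gene, with 128 IP reads, a fold of 9.52 and no knockout partner. It falls outside the bounds of the gene and is not among the 165 wild-type peaks counted above. CNTNAP3 has near-identical copies, so the placement of its reads is uncertain.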
